A study of Mus musculus with 42 samples.

Results

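Loss of Tsc2 in the kidney tubule can be countered with a drug, rapamycin, or by deleting a second gene, Tfeb, and the comparison described here sets the kidneys of the 2 rescues against each other. It covers 6 libraries of the 42 in the series: 3 from Tsc2 KO mice given rapamycin and 3 from Tsc2 and Tfeb double knockout (DKO) mice given the vehicle, chosen by their genotype and treatment labels. Both groups were KspCre; Tsc2 fl/fl mice on a C57BL/6 background, killed at P50, and the DKO mice also carried Tfeb fl/fl. KspCre is driven by the cadherin 16 promoter, which is active in tubular epithelium, so that blood vessels, stroma and immune cells kept both genes. Rapamycin was injected intraperitoneally at 1 mg/kg, 3 times per week, from P25, for 11 injections in all, and the vehicle was injected on the same schedule. The drug therefore acted from P25, whereas Tfeb was deleted together with Tsc2 by the same Cre. The 6 groups of the cohort hold 3 biological replicates each. They include vehicle and rapamycin arms of control mice, labelled wild type and given as Cre-negative in the study's figure legends. They also include the vehicle arm of Tsc2 KO mice and the rapamycin arm of DKO mice. Poly(A) RNA of whole kidney tissue was sequenced without strand information.

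TSC2 is part of the complex that turns off RHEB, the small GTPase that activates the kinase complex mTORC1. Rapamycin is an allosteric inhibitor of mTORC1. TFEB is a basic helix-loop-helix transcription factor of the MiT/TFE family that binds E-box motifs in the promoters of lysosomal genes, and its place in the cell is set by mTORC1 through the Rag GTPases. mTORC1 also promotes sterol and fatty acid synthesis through the SREBP factors and amino acid synthesis through ATF4, so the drug and the deletion act at different points of one pathway. Because both groups lack Tsc2, a gene that differs between them shows where the 2 rescues left the kidney at different levels, and the vehicle-treated Tsc2 KO mice drop out of the contrast.

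The number of genes that differed between the 2 rescues depended on the test. Of 7725 genes with a mean of at least 5 FPKM (the authors' expression level, scaled to gene length and library size) in either group, 135, or 1.75%, differed at an adjusted p of at most 0.05 in edgeR's quasi-likelihood test. Of these, 51 (0.66%) were higher after rapamycin and 84 (1.09%) were higher in DKO vehicle kidneys. DESeq2 called 235 higher and 337 lower after rapamycin, and edgeR on the 2 groups alone called 1 higher and 14 lower. In the same edgeR fit of all 6 groups, vehicle-treated Tsc2 KO kidneys differed from vehicle-treated controls in 3924 of 8098 genes, 1929 of them increased (23.8%) and 1995 decreased (24.6%). The genes left higher in DKO vehicle kidneys included 5 of 21 listed sterol synthesis genes, 2 of 16 fatty acid synthesis genes, 3 of 22 interferon-stimulated genes and the stress gene Ddit4. The genes left higher after rapamycin included Tfeb itself, the intercalated cell markers Aqp6 and Atp6v1b1, and genes lowered by Tsc2 loss such as Guca2b and Cldn16.

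The 18 libraries of the cohort held 15104557 to 22807605 counts, with 15104557 to 17920869 in Tsc2 KO rapamycin and 18426751 to 22228206 in DKO vehicle. RNA of tissue outside the kidney was present in DKO vehicle libraries, as the plot of marker sums shows. The summed FPKM of 13 adrenal cortex markers was 373 in DKO vehicle 1, 4740 in DKO vehicle 2 and 34.2 in DKO vehicle 3, against 22.7 to 31.1 in Tsc2 KO rapamycin. Cyp21a1, the adrenal 21-hydroxylase, was at 74.4, 1200 and 0 FPKM in DKO vehicle and at 0 in every Tsc2 KO rapamycin library. The vehicle-treated Tsc2 KO libraries 1 and 2 also held it (422 and 13.9 FPKM), and adrenal medulla marker sums stood out in DKO vehicle 2 alone (753 against 38.8 to 61.3 in the other libraries of both groups). Fat markers summed to 357 to 806 in DKO vehicle and 13.5 to 69.5 in Tsc2 KO rapamycin, and haemoglobin and other erythroid markers to 2083, 2178 and 393 against 122.7 to 332.8. Of the 135 genes, 4 belong to these marker lists (Hsd3b1, Hbb-bs, Hbb-bt and Hba-a1, all higher in DKO vehicle), and 7, all of them higher in DKO vehicle, lost at least the share 0.5 of their log2 difference without DKO vehicle 1 and 2. Those 7 are these 4 with Cd1d1, Cyp2f2 and 6430548M08Rik, and they are not described further. Without DKO vehicle 1 and 2, which leaves 1 DKO vehicle library whose spread is taken from the other groups, 22 genes were lower after rapamycin, 17 of them among the 84, and 0 were higher, with 227 higher and 411 lower at an unadjusted p below 0.05. In leave-one-out fits the counts were 19 higher and 60 lower without DKO vehicle 1, 10 and 85 without DKO vehicle 2, 24 and 88 without DKO vehicle 3, 44 and 40 without Tsc2 KO rapamycin 1, 17 and 29 without 2, and 10 and 40 without 3. All 18 libraries had the Xist level of females, with Ddx3y at or near 0.

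**Figure D1:**
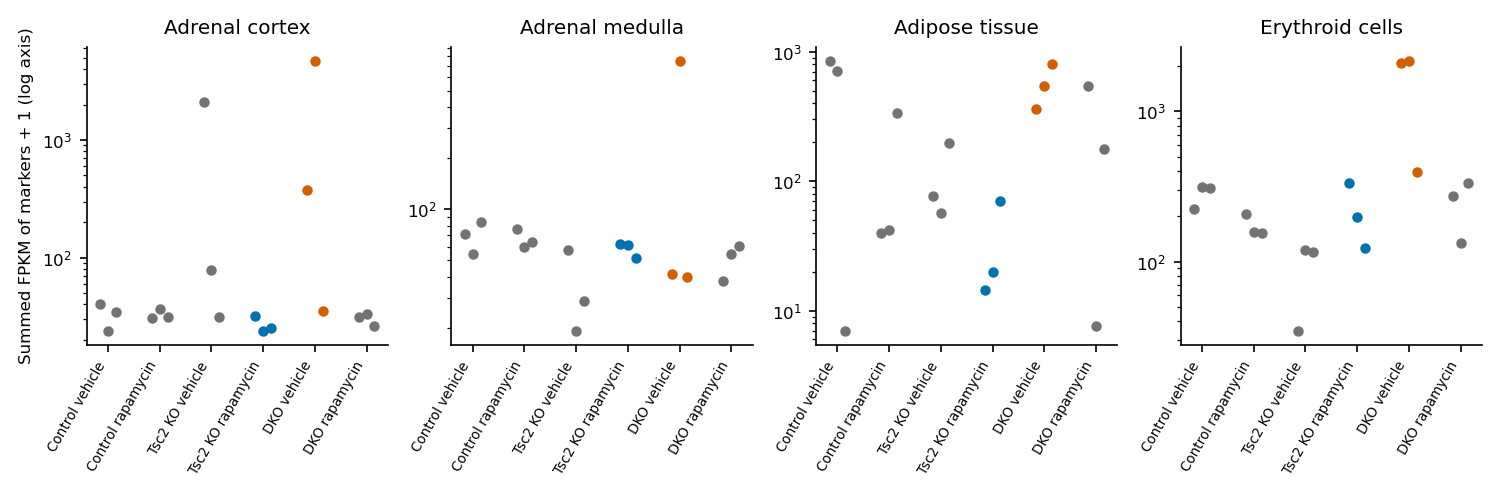
Summed FPKM plus 1 of marker genes of adrenal cortex, adrenal medulla, adipose tissue and erythroid cells (y axis, log scale) in each library of the 6 groups (x axis); each point is 1 library, with Tsc2 KO rapamycin in blue and DKO vehicle in orange. The adrenal cortex sums of DKO vehicle 1 and 2 (373 and 4740) lie above the 22.7 to 31.1 of the Tsc2 KO rapamycin libraries, and the fat marker sums of the 2 groups do not overlap.

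The targeted genes were read first. Tsc2 (chr17:24595816-24632630, mm10) was at 5.55, 6.5 and 5.06 FPKM in Tsc2 KO rapamycin and at 5.53, 6.41 and 6.29 FPKM in DKO vehicle. The groups overlapped, the log2 difference was -0.09 (SE 0.10, adjusted p = 0.676), and both lay below the 8.59 to 9.81 FPKM of vehicle-treated controls and above the 3.80 to 4.47 FPKM of vehicle-treated Tsc2 KO kidneys. In bulk tissue, fewer cells of a type and less RNA per cell cannot be told apart, so a whole-kidney level does not give the share of recombined cells. Tfeb (chr17:47737030-47792419) was at 6.5, 3.97 and 6.62 FPKM after rapamycin and at 3.18, 2.65 and 2.57 FPKM in DKO vehicle. Every rapamycin library was above every DKO library, and the gene was 1.03 higher on the log2 scale (SE 0.19, adjusted p = 0.0154). The call of Tfeb was lost without DKO vehicle 1 and 2, with a log2 difference of 1.15. It was also lost with the adrenal cortex sum as a covariate (1.09, adjusted p = 0.07632). A fit of the 2 groups alone lost it too (1.02, adjusted p = 0.1243). Rapamycin-treated DKO kidneys held 3.26 to 3.29 FPKM of Tfeb, close to the vehicle-treated DKO kidneys, and rapamycin-treated controls 4.47 to 7 FPKM. The other MiT/TFE factors were not called: Tfe3 was -0.12 (SE 0.13, adjusted p = 0.646) and Mitf 0.63 (SE 0.16, adjusted p = 0.0635).

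Gpnmb and Nyx, markers of Tsc2 loss known from earlier results of these data, stood far below their level in vehicle-treated Tsc2 KO kidneys after either rescue. Gpnmb, a transmembrane glycoprotein gene induced by MiT/TFE factors, was at 17.0 to 18.7 FPKM in vehicle-treated Tsc2 KO kidneys. It was at 0.102, 0.164 and 0.241 FPKM after rapamycin and at 0.219, 0.544 and 1.19 FPKM in DKO vehicle, with a log2 difference of -1.97 that did not pass the test (SE 0.83, adjusted p = 0.206). Nyx, which encodes the leucine-rich repeat protein nyctalopin, was at 8.07 to 13.4 FPKM in vehicle-treated Tsc2 KO kidneys, at 0.0963, 0.232 and 0.351 FPKM after rapamycin and at 2.80, 0.761 and 1.85 FPKM in DKO vehicle (log2 difference -3.00, SE 0.81, adjusted p = 0.0743). The 2 groups did not overlap for Nyx, and for Gpnmb the lowest DKO vehicle library lay below the highest rapamycin library. Meltf, a membrane-bound iron-binding protein gene, was at 0.309, 0.178 and 0.182 FPKM against 1.59, 0.290 and 1.78 FPKM (-2.43, SE 0.74, adjusted p = 0.106). Matn1, a cartilage matrix gene, was at 0.499 to 0.735 FPKM after rapamycin and 0.224 to 0.969 FPKM in DKO vehicle, with a log2 difference of 0.00 (SE 0.80, adjusted p = 0.999). For these last 2 genes vehicle-treated Tsc2 KO kidney 1 was itself low (1.47 and 0.581 FPKM), with 7.46 to 11.0 FPKM in the others, and none of the 4 genes reached 5 FPKM in either rescue group.

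The genes changed by Tsc2 loss give the rescues a common scale, since the sets come from vehicle-treated Tsc2 KO against vehicle-treated control kidneys, libraries outside the 2 groups compared that still entered the same fit and its estimate of the spread. Over the 1929 increased genes, the median of log2(FPKM + 0.5) above the control vehicle mean was 0.746, 0.708 and 0.668 in the Tsc2 KO vehicle libraries. It was 0.218, 0.0566 and 0.226 after rapamycin and 0.324, 0.332 and 0.302 in DKO vehicle. Every rapamycin library was thus below every DKO vehicle library, and both groups were far below Tsc2 KO vehicle. The DKO rapamycin libraries were at 0.111, 0.101 and 0.110. Over the 1995 decreased genes, the medians were -0.195, -0.0525 and -0.186 after rapamycin and -0.206, -0.413 and -0.227 in DKO vehicle, against -0.86, -0.842 and -0.72 in Tsc2 KO vehicle. Every rapamycin library was nearer to 0 than every DKO vehicle library here too, by as little as -0.195 against -0.206, and the farthest from 0 was DKO vehicle 2, the library with the most adrenal RNA. Both groups are set against the same control libraries in these medians.

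**Figure D2:**
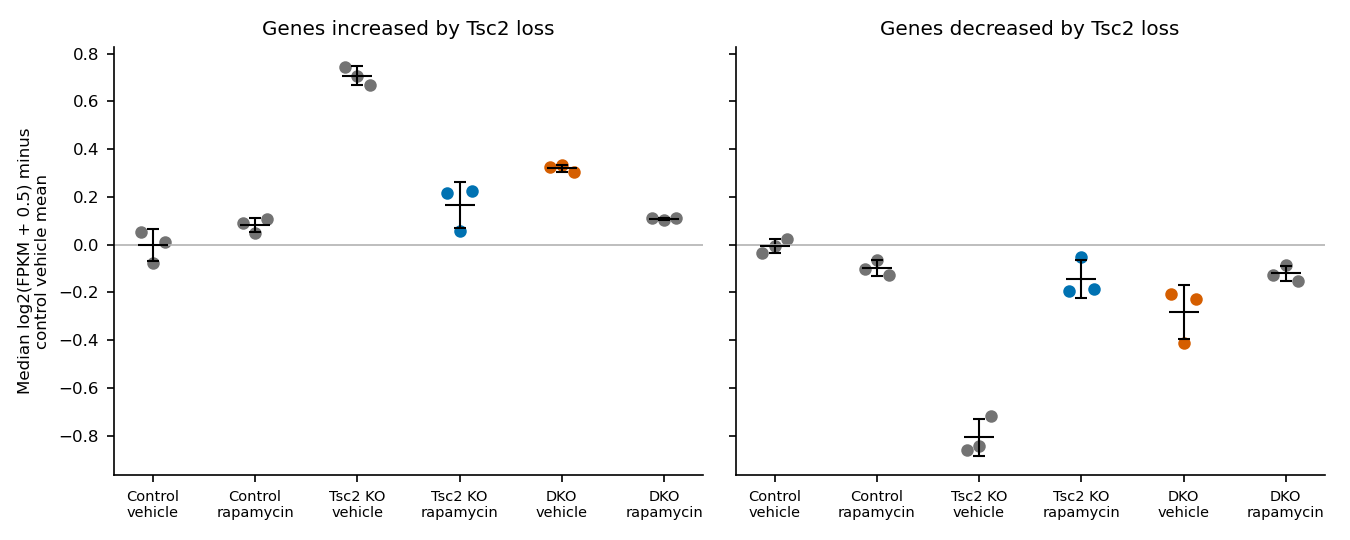
Median difference of log2(FPKM + 0.5) from the control vehicle mean (y axis) over the 1929 genes increased (left) and the 1995 genes decreased (right) by Tsc2 loss, in each library of the 6 groups (x axis); points are libraries, and the black marks are the mean and SD of 3 libraries. Tsc2 KO rapamycin (blue) spans 0.0566 to 0.226 on the left and DKO vehicle (orange) 0.302 to 0.332.

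In the direct test, 59 of the 1929 genes increased by Tsc2 loss were lower after rapamycin than in DKO vehicle and 7 were higher. Among the 1596 of them with 5 FPKM in either group, 3.70% were lower, beside 1.09% of all genes. The median log2 difference of the 1929 genes was -0.15, and 73.4% of them were below 0, with a median of -0.01 over all 17027 genes tested. Of the 1995 genes decreased by Tsc2 loss, 29 were higher after rapamycin and 8 were lower, with a median log2 difference of 0.15 and 72.5% above 0. Among the 1916 of them with 5 FPKM, 1.51% were higher, beside 0.66% of all genes. The balance of calls among the decreased genes turned in some alternatives. Without DKO vehicle 2 it was 3 higher and 5 lower. With the adrenal marker mean as a covariate it was 1 and 3, and in a fit of the 2 groups alone 0 and 1. It also turned without DKO vehicle 1 and 2, which leaves 1 DKO vehicle library. The 29 higher became 8 without DKO vehicle 1, 11 without DKO vehicle 3, and 24, 4 and 5 without Tsc2 KO rapamycin 1, 2 and 3, and the median of the 1995 genes was 0.11 without DKO vehicle 1 and 2. The remaining 32 of the 135 genes, 15 higher and 17 lower after rapamycin, were not called for Tsc2 loss. In all, 88 of the 103 genes called in both contrasts differed, after rapamycin against DKO vehicle, in the direction opposite to Tsc2 loss. Those 88 are 59 increased and 29 decreased genes, and the counts became 16 and 0 without DKO vehicle 1 and 2, 18 and 1 with the adrenal covariate, and 7 and 0 in the fit of the 2 groups alone. The 59 became 31, 24 and 36 without Tsc2 KO rapamycin 1, 2 and 3 and 37 without DKO vehicle 1. When the sets were taken from the untreated KspCre cohort, 52 of 729 increased genes were lower after rapamycin and 3 higher, and 20 of 676 decreased genes were higher and 2 lower.

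**Figure D3:**
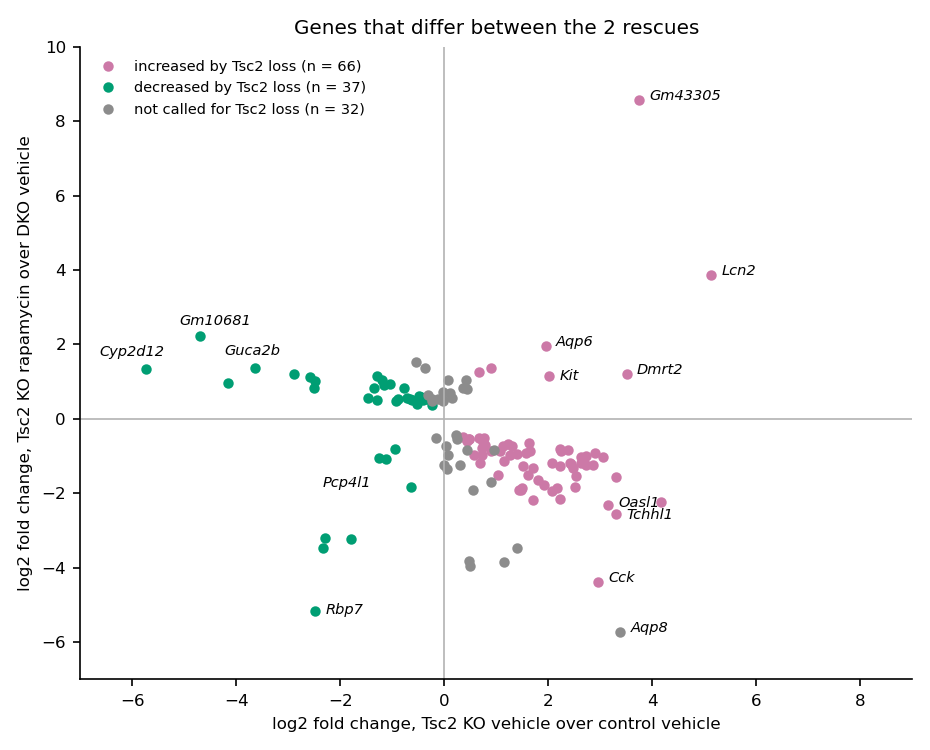
The genes that differ between the 2 rescues, with the log2 fold change of Tsc2 KO vehicle over control vehicle (x axis) against that of Tsc2 KO rapamycin over DKO vehicle (y axis, both from edgeR); each point is 1 of the 135 genes, coloured by its call for Tsc2 loss, and 1 gene (Hsd3b1) lies outside the axes. The 66 genes increased by Tsc2 loss lie mostly below 0 (59) and the 37 decreased genes mostly above 0 (29).

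Ddit4 (chr10:59949669-59951834), also known as REDD1, is a stress-induced inhibitor of mTORC1 and among the genes left high in DKO kidneys. It was at 15.1, 7.82 and 10.2 FPKM in control vehicle and at 52.9, 50.8 and 45.1 FPKM in Tsc2 KO vehicle. Rapamycin-treated Tsc2 KO kidneys were at 14.7, 5.98 and 15.3 FPKM and DKO vehicle kidneys at 45.5, 42.2 and 44.0 FPKM. The DKO values lay next to those of Tsc2 KO vehicle, the rapamycin values overlapped those of controls, and the log2 difference was -1.86 (SE 0.32, adjusted p = 0.00992). DKO kidneys that also received rapamycin were at 17.6, 8.40 and 13.4 FPKM. The call of Ddit4 was lost without DKO vehicle 1 and 2 (log2 difference -1.87). It was also lost with the adrenal marker mean as a covariate (adjusted p = 0.06365) and in a fit of the 2 groups alone (adjusted p = 0.07688).

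Of 21 listed sterol synthesis genes, the targets of SREBP2, edgeR called 5 lower after rapamycin and 0 higher. Of the 21, 19 were below 0, and the median log2 difference was -0.45. At an unadjusted p below 0.05, 11 (52.4%) were lower and 0 higher. Over all genes tested, 50.9% were below 0, 10.6% were lower and 8.93% higher at an unadjusted p below 0.05, and 1.09% of those with 5 FPKM were called lower. Insig1 (chr5:28071363-28078662), which holds the SREBP escort protein in the endoplasmic reticulum, was at 14, 15.5 and 15.1 FPKM after rapamycin and at 49.1, 29.3 and 50.1 FPKM in DKO vehicle (log2 difference -1.52, SE 0.19, adjusted p = 0.00158). Control vehicle kidneys held 15.9 to 20.8 FPKM of Insig1 and Tsc2 KO vehicle kidneys 30.2 to 45.5 FPKM. Msmo1, a methylsterol monooxygenase, differed by -0.85 (SE 0.18, adjusted p = 0.0327). Without DKO vehicle 1 and 2 the call of Insig1 held (log2 difference -1.75) and that of Msmo1 was lost (-0.79). In a fit of the 2 groups alone both calls were lost (adjusted p = 0.05522 for Insig1 and 0.1026 for Msmo1).

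Of 16 listed fatty acid synthesis genes, the targets of SREBP1, 2 were called lower and 0 higher, 15 were below 0, 11 (68.8%) were lower at an unadjusted p below 0.05 against 0 higher, and the median log2 difference was -0.86. The shares over all genes were 1.09% called lower, 50.9% below 0 and 10.6% lower at an unadjusted p below 0.05. Scd2 (chr19:44293676-44306864), a stearoyl-CoA desaturase, was at 29.9, 19.0 and 34.4 FPKM after rapamycin and at 82.6, 139 and 103 FPKM in DKO vehicle (-1.95, SE 0.26, adjusted p = 0.00167). Fads1, the delta-5 desaturase, was at 37.7, 34.5 and 40.0 FPKM against 69.1, 86.8 and 65.5 FPKM (-0.98, SE 0.14, adjusted p = 0.00335). Without DKO vehicle 1 and 2 the call of Scd2 held (log2 difference -1.89) and that of Fads1 was lost (-0.81). In a fit of the 2 groups alone both were lost (adjusted p = 0.05522 for Scd2 and 0.06143 for Fads1). Fat tissue uses this pathway too, fat markers were higher in DKO vehicle, and their part in these results was not tested. Control vehicle 1 and 2 had fat marker sums of 853 and 713, in or near the DKO vehicle range, and control vehicle 3 had 5.95. Scd2 was at 21.1 and 28.8 FPKM in the first 2 and at 29.7 FPKM in the third, Fads1 at 38.4, 43.0 and 38.9 FPKM, and Insig1 at 20.8, 19.8 and 15.9 FPKM. The whole fatty acid synthesis list, in contrast, was lowest in the control library with the least fat. Its level on the log2(FPKM + 0.5) scale was 0.263, 0.134 and -0.975 in control vehicle 1, 2 and 3. That level was -1.26, -1.07 and -0.891 after rapamycin and -0.398, 0.622 and 0.157 in DKO vehicle. Fasn (-2.56, adjusted p = 0.233), Acaca (-2.24, adjusted p = 0.175) and Thrsp (-3.89, adjusted p = 0.179), which fat expresses strongly, had large differences that did not pass the test.

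**Figure D4:**
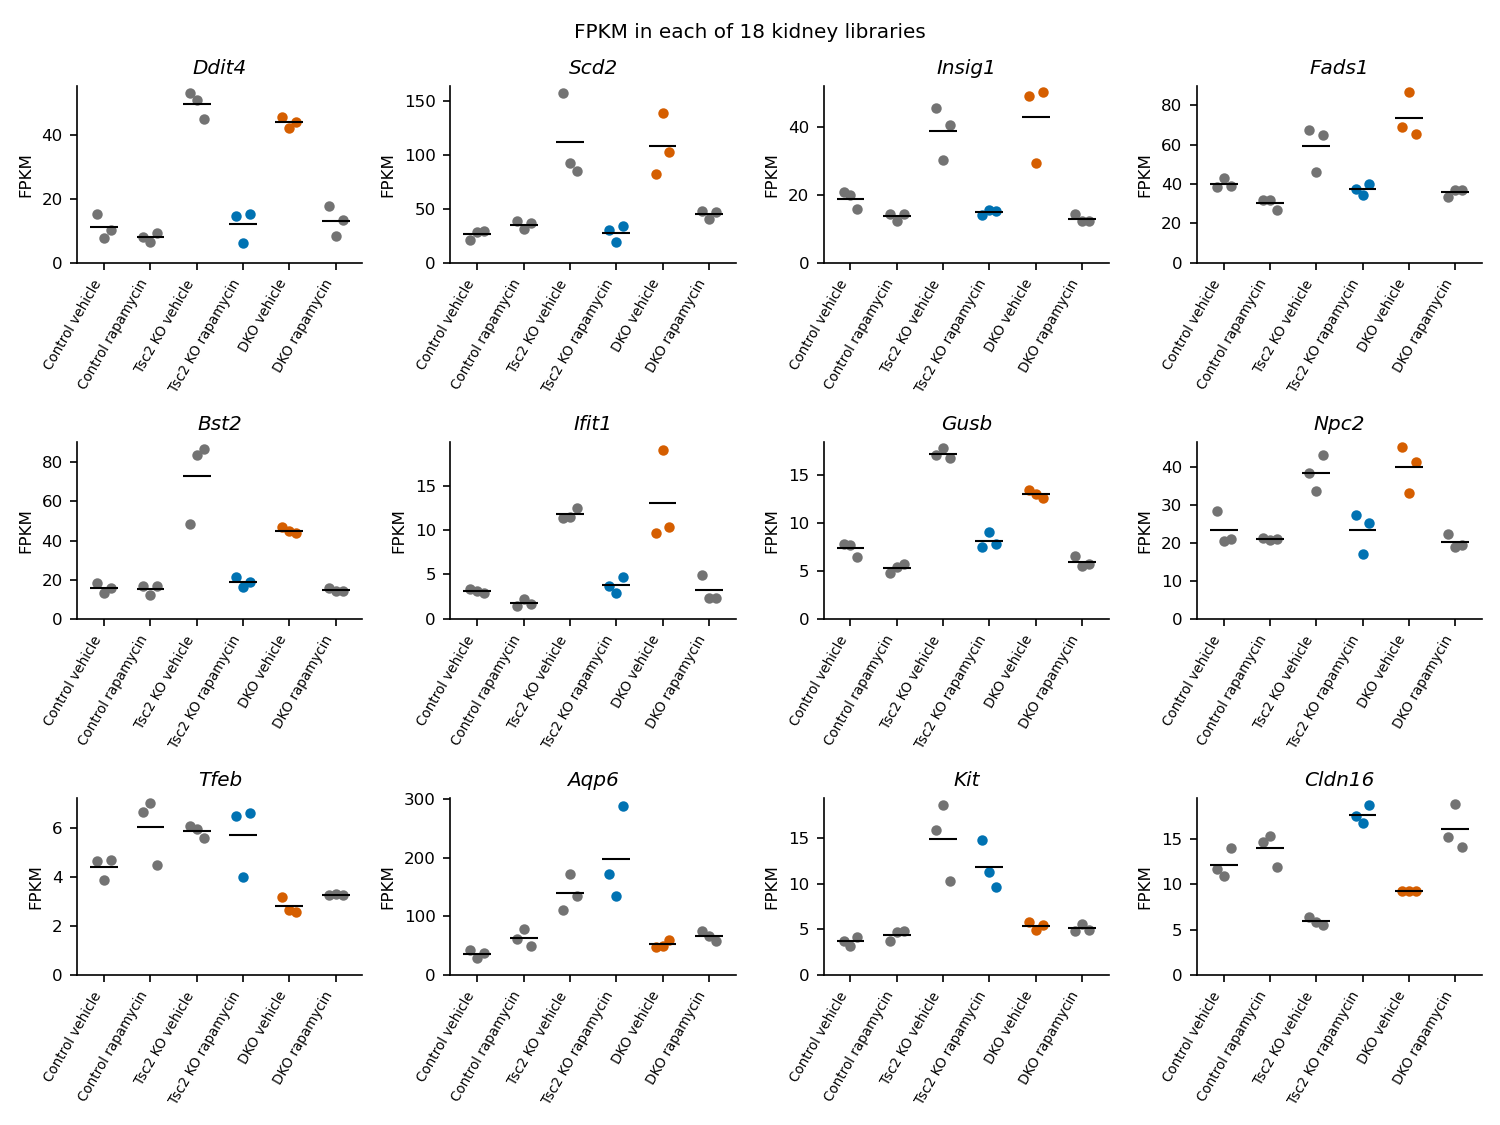
FPKM (y axis, linear, from 0) of 12 genes in each of the 18 libraries, by group (x axis); points are libraries, black lines are means of 3 libraries, with Tsc2 KO rapamycin in blue and DKO vehicle in orange. In Ddit4, Scd2, Insig1, Fads1, Bst2, Ifit1, Gusb and Npc2 the orange points lie above the blue points, and in Tfeb, Aqp6, Kit and Cldn16 below them.

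Of 22 listed interferon-stimulated genes, 3 were called lower after rapamycin and 0 higher, and all 3 calls were lost without DKO vehicle 1 and 2. Of the 22, 20 were below 0, 10 (45.5%) were lower and 0 higher at an unadjusted p below 0.05, and the median log2 difference was -0.45. Over all genes, 1.09% were called lower, 50.9% were below 0 and 10.6% were lower at an unadjusted p below 0.05. Bst2 (chr8:71534255-71537456), which encodes tetherin, a membrane protein that retains budding virus, was at 21.4, 16.2 and 18.7 FPKM after rapamycin and at 46.7, 44.7 and 43.7 FPKM in DKO vehicle (-1.26, SE 0.20, adjusted p = 0.00607). Controls held 13.1 to 18 FPKM of Bst2 and Tsc2 KO vehicle 48.6 to 86.7 FPKM. Ifit1 (chr19:34640871-34650009), a sensor of foreign RNA caps, was at 3.70, 2.92 and 4.74 FPKM against 9.62, 19.1 and 10.4 FPKM (-1.77, SE 0.30, adjusted p = 0.00963). Ifit2 differed by -1.50 (SE 0.30, adjusted p = 0.0267). Oasl1, an interferon-induced gene outside the list that is among the largest differences, was at 1.49, 0.384 and 1.13 FPKM against 5.97, 4.00 and 5.26 FPKM (-2.33, SE 0.37, adjusted p = 0.00655). The groups did not overlap for any of these genes, as for 83 of the 84 genes called lower and 22.9% of the 7725 genes with 5 FPKM. Groups that did not overlap were also a condition for naming Oasl1. Without DKO vehicle 1 and 2 the call of Oasl1 was lost as well. The log2 differences were then -1.22 for Bst2, -1.45 for Ifit1, -1.35 for Ifit2 and -2.38 for Oasl1, and the list's median was -0.51. In a fit of the 2 groups alone the call of Bst2 held (adjusted p = 0.03956) and those of Ifit1, Ifit2 and Oasl1 were lost (adjusted p = 0.07688, 0.1696 and 0.0969). In the untreated cohort, which shares no library with this comparison, DKO minus Tsc2 KO was 0.30 for Bst2 and 0.99 for Ifit1 on the log2 scale, without a call (adjusted p = 0.768 and 0.125). Macrophage markers summed to 57.5 to 101 FPKM after rapamycin and 71.0 to 96.7 FPKM in DKO vehicle.

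The promoters of the 2 leading listed interferon genes carry the interferon-stimulated response element, a motif of promoters that respond to interferon. The motif was searched as GAAANNGAAA on both strands of RefSeq promoters, 250 bases before to 50 bases after each start, on GRCm38.p6, the assembly of mm10. It was found in 12 of 19 interferon genes with a promoter in the table (63.2%) and in 458 of 12115 genes tested (3.78%). Ifit1 (chr19:34640639-34640938, plus strand) holds 2 copies on the reverse strand, starting 104 and 85 bases before the start site. Bst2 (chr8:71537423-71537722, minus strand) holds 2 overlapping copies, 130 and 124 bases before the start. Both sequences read 5′ to 3′ along the gene, with the motif in capitals.
Ifit1: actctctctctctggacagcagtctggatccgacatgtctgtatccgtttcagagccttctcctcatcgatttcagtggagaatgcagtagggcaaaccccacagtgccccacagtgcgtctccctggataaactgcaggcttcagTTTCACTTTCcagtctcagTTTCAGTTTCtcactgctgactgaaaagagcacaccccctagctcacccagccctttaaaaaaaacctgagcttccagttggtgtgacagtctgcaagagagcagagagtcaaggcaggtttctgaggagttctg
Bst2: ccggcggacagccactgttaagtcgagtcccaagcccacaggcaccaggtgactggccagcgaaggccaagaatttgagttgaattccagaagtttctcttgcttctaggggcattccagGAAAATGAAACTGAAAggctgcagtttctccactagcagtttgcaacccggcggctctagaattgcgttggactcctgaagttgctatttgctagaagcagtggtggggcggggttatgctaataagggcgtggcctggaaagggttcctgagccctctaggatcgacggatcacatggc
The median log2 difference of the 12 genes with the motif was -0.56, with 2 called lower and 11 below 0. Among the 63 genes lower after rapamycin that have a promoter in the table, 3 held the motif (4.76%), beside the 3.78% of all genes. The sterol element searched as TCACNCCAC was in 1 of 13 sterol synthesis genes with a promoter (Hmgcs1) and in 1.45% of all genes. A match is a description of letters and not of a bound site.

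ATF4 targets and genes of serine and one-carbon metabolism, the amino acid branch, had a median log2 difference of -0.72, and 16 of 20 were below 0. edgeR called 0 of them and DESeq2 5, all lower, and 12 were lower and 0 higher at an unadjusted p below 0.05. Over all genes tested, 50.9% were below 0 and 10.6% were lower at an unadjusted p below 0.05. Mthfd2, the mitochondrial folate enzyme, was at 1.58, 0.977 and 1.65 FPKM after rapamycin and at 3.29, 3.35 and 3.03 FPKM in DKO vehicle (-1.19, SE 0.19, adjusted p = 0.00615), under the minimum of 5 FPKM. In Tsc2 KO vehicle it was at 6.86 to 8.18 FPKM, so DKO vehicle stood between the other groups. Atf5, a related stress factor off the list and named after its value was seen, was called lower (-1.32, SE 0.27, adjusted p = 0.0274). Of the 22 glycolysis and HIF targets, 2 were called lower, beside 1.09% of all genes, and 0 higher, and the median was -0.23. Pkm, the muscle-type pyruvate kinase gene, was at 67.7, 57.5 and 64.7 FPKM against 94.7, 124 and 92.1 FPKM (-0.71, SE 0.14, adjusted p = 0.0272), and Pgam1 differed by -0.44 (SE 0.10, adjusted p = 0.0492). Both calls were lost without DKO vehicle 1 and 2, where the log2 differences were -0.54 and -0.36. They were also lost in the fit of the 2 groups alone (adjusted p = 0.1417 and 0.1889). Of 35 ribosomal protein genes, whose mRNAs are translated under mTORC1 control, edgeR called 0 and DESeq2 3, all higher. Their median was -0.05 (0.03 without DKO vehicle 1 and 2). At an unadjusted p below 0.05, 7 (20%) were higher and 0 lower, beside 8.93% and 10.6% of all genes tested.

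Lysosomal genes had small log2 differences between the rescues, mostly below 0. Of the 96 genes of the KEGG Lysosome pathway that the study tabulated for this cohort, 2 were lower after rapamycin (Gusb and Npc2) and 0 higher. DESeq2 called 8 lower and 1 higher, and at an unadjusted p below 0.05 with 5 FPKM edgeR had 19 lower and 5 higher. Over all 7725 genes with 5 FPKM, edgeR called 1.09% lower and 0.66% higher, and DESeq2 called 337 lower and 235 higher. At an unadjusted p below 0.05, 918 of those genes were lower and 827 higher in edgeR. The median log2 difference of the 96 was -0.13, with 72.9% below 0 beside 50.9% of all genes tested, beside a median of 0.29 for Tsc2 KO over control vehicle. Gusb (chr5:129989011-130003049), the lysosomal beta-glucuronidase, was at 7.45, 8.99 and 7.76 FPKM after rapamycin and at 13.4, 13.0 and 12.5 FPKM in DKO vehicle (-0.68, SE 0.11, adjusted p = 0.0069). It was at 6.42 to 7.82 FPKM in controls and 16.8 to 17.8 FPKM in Tsc2 KO vehicle. Npc2 (chr12:84754562-84773152), the soluble cholesterol carrier of the lysosome, was at 27.4, 17.1 and 25.3 FPKM against 45.3, 33.3 and 41.4 FPKM (-0.78, SE 0.17, adjusted p = 0.0406). Both calls were lost without DKO vehicle 1 and 2, where the log2 differences were -0.64 and -0.83. Of 14 cathepsin and legumain genes edgeR called 0 and DESeq2 2, both lower. At an unadjusted p below 0.05, 4 (28.6%) were lower and 0 higher, beside 10.6% and 8.93% of all genes tested. Ctsl, a cysteine protease gene, was lowest in p at 106, 97.8 and 120 FPKM against 268, 118 and 211 FPKM (-0.88, SE 0.23, adjusted p = 0.0635). Of 21 lysosomal membrane genes edgeR called 0 and DESeq2 3, all lower, with the lowest p for the lipid transporter Abca2 (-0.40, SE 0.10, adjusted p = 0.0548). At an unadjusted p below 0.05, 6 (28.6%) were lower and 1 (4.76%) higher, beside the same 10.6% and 8.93% of all genes. The V-ATPase, the proton pump that acidifies the lysosome, had 16 of 22 genes below 0 and a median of -0.15, and 1 subunit higher, Atp6v1b1, which belongs to intercalated cells.

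The palindromic E-box TCACGTGA, the core of the site that TFEB and its relatives bind, was found in the promoters of 10 of 75 lysosomal genes (13.3%) and in 235 of 12115 genes tested (1.94%). Ctsd, which encodes the aspartic protease cathepsin D (chr7:142387778-142388077, minus strand), and Mcoln1, the lysosomal calcium channel (chr8:3500269-3500568, plus strand), are shown as 2 of these, with the motif in capitals 99 and 46 bases before the start.
Ctsd: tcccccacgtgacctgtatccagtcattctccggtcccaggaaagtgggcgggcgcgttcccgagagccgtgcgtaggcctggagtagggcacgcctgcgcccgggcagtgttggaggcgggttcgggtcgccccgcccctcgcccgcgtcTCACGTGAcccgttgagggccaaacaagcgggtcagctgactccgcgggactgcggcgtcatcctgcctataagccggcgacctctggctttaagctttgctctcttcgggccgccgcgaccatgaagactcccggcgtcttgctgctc
Mcoln1: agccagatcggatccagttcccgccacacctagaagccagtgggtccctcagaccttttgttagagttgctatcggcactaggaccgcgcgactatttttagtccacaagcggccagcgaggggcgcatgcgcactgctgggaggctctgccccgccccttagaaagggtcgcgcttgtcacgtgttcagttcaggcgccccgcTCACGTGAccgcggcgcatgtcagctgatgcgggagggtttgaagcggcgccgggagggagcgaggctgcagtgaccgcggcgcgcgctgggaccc
Of the 10 genes with the E-box, 8 were below 0, and their median log2 difference was -0.15. Ctsd was at 232, 123 and 250 FPKM after rapamycin and at 418, 303 and 349 FPKM in DKO vehicle (-0.82, SE 0.24, adjusted p = 0.0944), against 591 to 751 FPKM in Tsc2 KO vehicle. Mcoln1 was at 6.74, 7.90 and 8.49 FPKM against 10.1, 6.89 and 8.65 FPKM (-0.14, SE 0.13, adjusted p = 0.572). Among the 63 lower genes with a promoter, 1 (Rcan1) held the E-box, and of 40 higher genes, 0.

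Among the largest differences, several genes were high in DKO vehicle alone or in DKO vehicle and Tsc2 KO vehicle. Aqp8 (chr7:123462291-123468004), a water channel gene, was at 0.246, 0.465 and 0.317 FPKM after rapamycin and at 17.0, 19.3 and 18.4 FPKM in DKO vehicle (-5.73, SE 0.77, adjusted p = 0.00195). It was at 1.54, 3.32 and 8.96 FPKM in Tsc2 KO vehicle, below 1 FPKM in all control and DKO rapamycin libraries, and in the untreated cohort at 5.57 to 21.8 FPKM in Tsc2 KO and 1.59 to 20.7 FPKM in DKO. Cck (chr9:121489824-121495694), which encodes the peptide hormone cholecystokinin, was at 1.87, 0.717 and 3.22 FPKM against 44.9, 45.3 and 33.7 FPKM (-4.40, SE 0.50, adjusted p = 0.000896). DKO rapamycin kidneys were at 6.57 to 10.6 FPKM. Tchhl1, a trichohyalin-like gene, differed by -2.55 (SE 0.40, adjusted p = 0.00655) and Cox6a2, the heart and muscle form of a cytochrome oxidase subunit, by -3.47 (SE 0.67, adjusted p = 0.0247). Dmpk, a muscle protein kinase, was at 2.11, 2.15 and 4.10 FPKM against 13.5, 12.9 and 11.7 FPKM (-2.18, SE 0.28, adjusted p = 0.00167), and the small heat shock gene Hspb8 at 4.18, 2.19 and 4.47 FPKM against 14.9, 24.8 and 9.33 FPKM (-2.17, SE 0.33, adjusted p = 0.00558). The calls of Aqp8, Cck, Tchhl1 and Dmpk held without DKO vehicle 1 and 2 (log2 differences -5.74, -4.11, -2.88 and -2.07). Those of Cox6a2 and Hspb8 were lost (-3.59 and -1.37). In the fit of the 2 groups alone Aqp8, Cck and Dmpk held, and Tchhl1, Cox6a2 and Hspb8 were lost (adjusted p = 0.07861, 0.09037 and 0.09397). Skeletal muscle markers summed to 8.04 to 18.6 FPKM after rapamycin and 15.5 to 22.2 FPKM in DKO vehicle.

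Other genes higher in DKO vehicle differed in how their libraries compared. Rbp7, a retinol-binding protein gene of fat and endothelium, was at 0.0773, 0.279 and 0.0873 FPKM against 1.91, 5.35 and 9.07 FPKM (-5.16, SE 1.21, adjusted p = 0.0477), and at 12, 3.16 and 0.172 FPKM in control vehicle, in the order of their fat marker sums. Gsg1l, an AMPA receptor auxiliary subunit gene, was at 0.339, 0.153 and 0.671 FPKM against 2.53, 12 and 2.50 FPKM (-3.85, SE 0.86, adjusted p = 0.0406) and Cebpb, a C/EBP factor, at 17.6, 6.98 and 15 FPKM against 31.8, 86.1 and 32.7 FPKM (-1.92, SE 0.41, adjusted p = 0.0329), both highest in DKO vehicle 2, the library with most adrenal RNA. Ttr, the thyroxine carrier transthyretin, differed by -2.24 (SE 0.50, adjusted p = 0.0406), with 127, 118 and 321 FPKM against 889, 490 and 1290 FPKM. Igfbp5, an insulin-like growth factor binding protein and the 1 called gene of 18 tested on its list, was high in all 3 DKO vehicle libraries, at 57.6, 48.4 and 55.9 FPKM against 188, 168 and 150 FPKM (-1.64, SE 0.32, adjusted p = 0.0237). Of all genes, 1.09% were called lower, and the median of that list was -0.16. The calls of Rbp7, Gsg1l, Cebpb, Ttr and Igfbp5 were lost without DKO vehicle 1 and 2. Their log2 differences were then -5.89, -2.68, -1.31, -2.78 and -1.48. Igfbp5 held its call with the adrenal marker mean as a covariate (adjusted p = 0.04646) and in the fit of the 2 groups alone (adjusted p = 0.03497). The calls of Rbp7, Gsg1l, Cebpb and Ttr were lost in both of those fits. Maoa and Maob, chosen after their values were seen and the adjacent genes of the 2 monoamine oxidases, differed by -1.19 (SE 0.25, adjusted p = 0.0329) and -1.91 (SE 0.36, adjusted p = 0.0218).

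Of 10 listed markers of intercalated cells, the acid and base transporting cells of the collecting duct, 2 (Aqp6 and Atp6v1b1) were called higher after rapamycin, beside 0.66% of all genes, and 0 lower. Of the 10, 7 were above 0, beside 49.1% of all genes tested, and the median was 0.37, which was 0.22 without DKO vehicle 1 and 2. The calls of Aqp6 and Atp6v1b1 were lost without those libraries, where their log2 differences were 1.76 and 0.64. Aqp6 (chr15:99601400-99605477), an anion-conducting aquaporin of intracellular vesicles, was at 172, 135 and 289 FPKM after rapamycin and at 47.9, 48.4 and 58.4 FPKM in DKO vehicle (1.95, SE 0.26, adjusted p = 0.00179). Tsc2 KO vehicle kidneys held 111 to 173 FPKM and control vehicle 28.4 to 42.2 FPKM, so the rapamycin values overlapped those of vehicle-treated Tsc2 KO kidneys and the DKO values lay nearer to controls. Atp6v1b1, the B1 subunit of the V-ATPase, was at 73.2, 61.0 and 53.4 FPKM against 46.6, 29.0 and 40.1 FPKM (0.70, SE 0.16, adjusted p = 0.0457). Dmrt2 (chr19:25672420-25679010), a DM-domain transcription factor gene, was at 19.0, 13.9 and 18.2 FPKM against 8.02, 6.25 and 7.83 FPKM (1.21, SE 0.17, adjusted p = 0.00255), with 34.5 to 47.6 FPKM in Tsc2 KO vehicle. Kit (outside the marker list, as is Dmrt2; chr5:75574916-75656722), the stem cell factor receptor, was at 14.8, 11.2 and 9.57 FPKM against 5.77, 4.88 and 5.49 FPKM (1.14, SE 0.20, adjusted p = 0.0108), and at 10.3 to 18.6 FPKM in Tsc2 KO vehicle. Without DKO vehicle 1 and 2 the log2 differences of Dmrt2 and Kit were 1.12 and 1.11. Both calls were lost with the adrenal marker mean as a covariate (adjusted p = 0.05135 each). They were also lost in the fit of the 2 groups alone (adjusted p = 0.05522 and 0.0665). Of the intercalated cell markers that did not pass, Slc26a4, the pendrin gene, had a log2 difference of -0.78 (adjusted p = 0.176) and Slc4a1, the anion exchanger 1 gene, of 1.09 (adjusted p = 0.0817).

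Some genes are named here after their values were seen as well as by size. For Ccnd1, Sult1c2 and Gm43305, DKO kidneys were low with and without the drug. Ccnd1, the cyclin D1 gene, was at 38.8, 42.5 and 45.9 FPKM after rapamycin and at 22.2, 21.5 and 28.9 FPKM in DKO vehicle (0.81, SE 0.18, adjusted p = 0.0391), with 22.3 to 24.4 FPKM in DKO rapamycin and 46.1 to 52.0 FPKM in Tsc2 KO vehicle. In the untreated cohort Ccnd1 was 1.09 lower in DKO than in Tsc2 KO (log2 difference -1.09, adjusted p = 0.0355). Ccnd1 was the 1 called gene of 28 cell cycle genes, beside 0.66% of all genes called higher, and 2 of the 28 had 5 FPKM. The list mostly went the other way, with 23 genes below 0 (82.1%, beside 50.9% of all genes tested) and a median of -0.43. At an unadjusted p below 0.05, 1 was higher and 2 were lower. Sult1c2, a sulfotransferase gene on chromosome 17 like Tfeb, was at 121, 95.5 and 111 FPKM against 48.3, 35.4 and 43.6 FPKM (1.37, SE 0.29, adjusted p = 0.0327), with 50.2 to 56.3 FPKM in DKO rapamycin and 76.1 to 83.9 FPKM in Tsc2 KO vehicle. In the untreated cohort it was at 64.9 to 83.0 FPKM in Tsc2 KO and 36.5 to 42.2 FPKM in DKO (log2 difference -0.96, adjusted p = 0.123). Metap1d, a mitochondrial methionine aminopeptidase gene, was at 4.54, 6.28 and 5.83 FPKM against 1.16, 1.68 and 2.91 FPKM (1.53, SE 0.33, adjusted p = 0.0349). Without DKO vehicle 1 and 2 the log2 differences of Ccnd1, Sult1c2 and Metap1d were 0.55, 1.32 and 0.93. The adrenal marker mean as a covariate lost all 3 calls (adjusted p = 0.2422, 0.1641 and 0.1939). In the fit of the 2 groups alone Sult1c2 held (adjusted p = 0.03956), and Ccnd1 and Metap1d were lost (0.09593 and 0.1248). Chosen after its values were seen, the processed transcript Gm43305 (chr14:54292443-54297456) had the highest log2 difference, 8.57 (SE 1.63, adjusted p = 0.0219), with 25.8, 3.77 and 71.3 FPKM against 0.0569, 0.129 and 0.0737 FPKM. It was under 0.1 FPKM in every DKO rapamycin library, at 27.4, 0.0464 and 10.7 FPKM in control vehicle, and at 0.0536, 0.0952 and 40.5 FPKM in the untreated DKO mice, so its level varied between animals of a genotype.

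Lcn2 (chr2:32384633-32388252), which encodes the injury marker NGAL, was at 7.21, 2.32 and 10.2 FPKM after rapamycin and at 0.370, 0.571 and 0.405 FPKM in DKO vehicle (3.87, SE 0.50, adjusted p = 0.00167). It stood at 18.7 to 49.5 FPKM in Tsc2 KO vehicle and 0.94 to 1.06 FPKM in control vehicle, and so stayed above controls after rapamycin and below them in DKO vehicle. In the untreated cohort the DKO mice held 91.6, 0.796 and 1.43 FPKM, with 1 animal above all others. Of the 26 genes of the injury list, 1 was called higher (Lcn2) and 1 lower (Lgals3), and the median was -0.51. At an unadjusted p below 0.05, 9 (34.6%) were lower and 3 (11.5%) higher, beside 10.6% and 8.93% of all genes tested, and 17 (65.4%) were below 0, beside 50.9%. Lgals3, which encodes galectin-3, was at 21.7, 12.8 and 18.8 FPKM after rapamycin against 42.9, 27.7 and 38.7 FPKM (-1.03, SE 0.17, adjusted p = 0.00979), with 134 to 147 FPKM in Tsc2 KO vehicle. The call of Lgals3 held without DKO vehicle 1 and 2 (log2 difference -1.12) and that of Lcn2 was lost (4.01). With the adrenal marker mean as a covariate both held (adjusted p = 0.04512 for Lgals3 and 0.002954 for Lcn2). Both were lost in the fit of the 2 groups alone (adjusted p = 0.1365 and 0.05716). Cdkn1a, the p21 gene, was at 5.11, 4.19 and 5.04 FPKM against 9.73, 9.68 and 9.12 FPKM and did not pass (-0.99, SE 0.23, adjusted p = 0.0502). Hmox1, the haem oxygenase 1 gene, was at 12.9, 13.1 and 23.5 FPKM against 52.0, 23.5 and 44.0 FPKM (-1.27, SE 0.30, adjusted p = 0.0512).

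Among the genes higher after rapamycin, 29 of 51 (56.9%) were lowered by Tsc2 loss, beside 1916 of all 7725 genes (24.8%). The 29 fell to 3 without DKO vehicle 2 and to 0 without DKO vehicle 1 and 2. Guca2b (chr4:119656607-119658954), which encodes the natriuretic peptide uroguanylin, was at 155, 250 and 196 FPKM after rapamycin and at 70.6, 80.9 and 82.0 FPKM in DKO vehicle (1.37, SE 0.30, adjusted p = 0.0389). Controls were at 176 to 270 FPKM and Tsc2 KO vehicle at 7.56 to 24.5 FPKM. Cldn16 (chr16:26463135-26482765), the magnesium-permeable claudin of the thick ascending limb, was at 17.6, 16.8 and 18.9 FPKM against 9.29, 9.23 and 9.29 FPKM (0.94, SE 0.14, adjusted p = 0.00448), with 10.9 to 14 FPKM in control vehicle. Cyp2d12, a cytochrome P450 gene with close paralogs, differed by 1.34 (SE 0.26, adjusted p = 0.0224), Stk32b, a kinase gene, by 1.21 (SE 0.20, adjusted p = 0.00732), and Dusp9, a MAP kinase phosphatase gene, by 1.13 (SE 0.25, adjusted p = 0.0406). Gm10681 (2.22, SE 0.50, adjusted p = 0.0406) overlaps Zfp697 and 2 further genes and belongs to the near-identical Hsd3b family, so its reads are uncertain. Cyp2d12, Cp, Metap1d, Oasl1, Dmpk, Scd2, Ctsl, Ctsd and Cox6a2 also overlap other annotated genes, whose reads cannot be told apart without strand. Cp, the ferroxidase ceruloplasmin, which Tsc2 loss raised instead, was at 7.85, 14.2 and 10.6 FPKM against 4.13, 5.20 and 4.35 FPKM (1.26, SE 0.25, adjusted p = 0.0274), below the 7.47 to 10.3 FPKM of control vehicle in DKO vehicle. Glis3, a cystic kidney disease gene, was at 11.5, 11.3 and 10.2 FPKM against 7.99, 5.96 and 7.85 FPKM (0.60, SE 0.12, adjusted p = 0.0293).

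**Figure D5:**
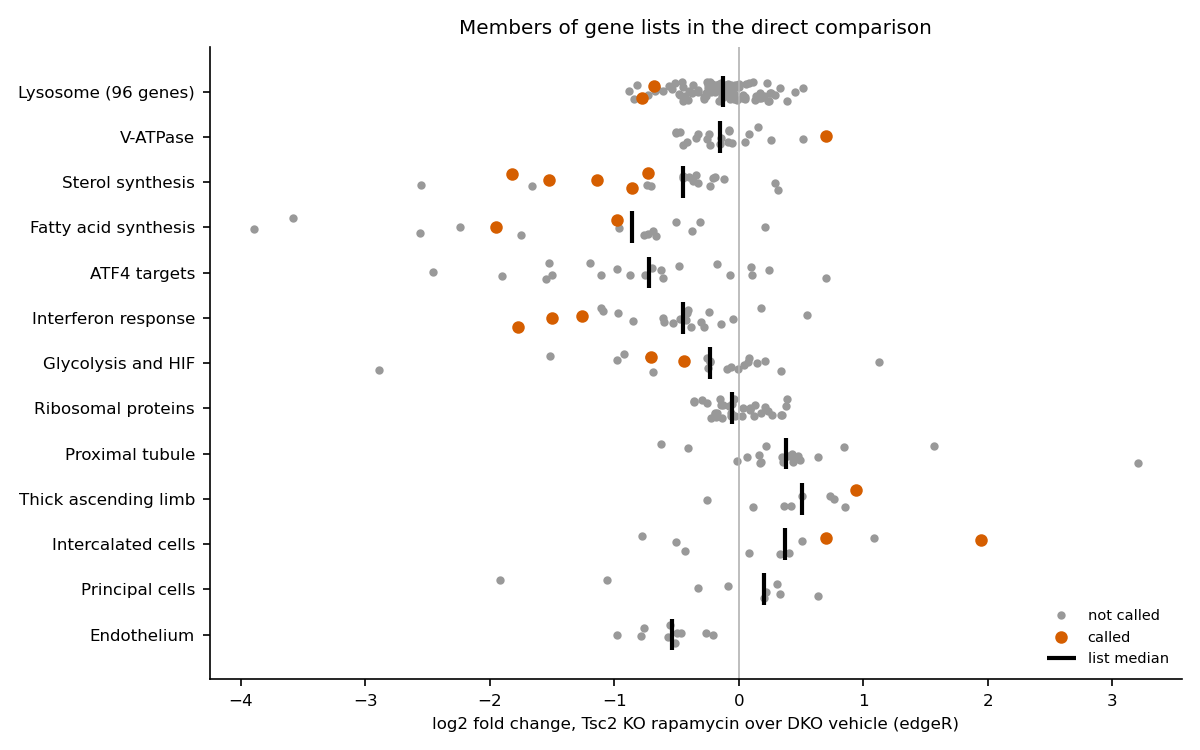
log2 fold change of Tsc2 KO rapamycin over DKO vehicle (x axis, edgeR) for every tested member of 13 gene lists (y axis); grey points are genes that were not called, orange points called genes, and black bars the list medians. Sterol synthesis, fatty acid synthesis, ATF4 targets and interferon genes lie mostly below 0 (medians -0.45, -0.86, -0.72 and -0.45), lysosomal genes around -0.13, and proximal tubule and thick ascending limb genes above 0 (0.38 and 0.51).

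Proximal tubule markers had a median log2 difference of 0.38, with 17 of 20 above 0, 0 called by edgeR, 1 called higher by DESeq2, and 6 higher and 0 lower at an unadjusted p below 0.05. Their summed FPKM was 11102 to 12632 after rapamycin and 6630 to 9899 in DKO vehicle, without overlap, and 12933 to 17503 in control vehicle. The lowest sum, 6630, was that of DKO vehicle 2, with 9835 and 9899 in the other 2 DKO vehicle libraries. Without DKO vehicle 1 and 2 the list's median was 0.21, and 8.93% of all genes were higher at an unadjusted p below 0.05. The lowest p belonged to Slc27a2, a fatty acid transport and activation gene, at 579, 799 and 728 FPKM against 473, 380 and 508 FPKM (0.63, SE 0.18, adjusted p = 0.088). Thick ascending limb markers had 8 of 9 genes above 0, beside 49.1% of all genes tested, and a median of 0.51, with 5 higher and 0 lower at an unadjusted p below 0.05 and Cldn16 called. Endothelial markers were below 0 in 10 of 10 genes, beside 50.9% of all genes tested, with a median of -0.53, 0 called by edgeR, 1 called lower by DESeq2, and 4 lower and 0 higher at an unadjusted p below 0.05. Their summed FPKM was 81.4 to 99.0 after rapamycin and 84.8 to 220 in DKO vehicle, and overlapped. Cdh5, the VE-cadherin gene, was at 5.72, 5.34 and 4.82 FPKM against 5.50, 16.4 and 9.55 FPKM (-0.98, SE 0.27, adjusted p = 0.0772), highest in DKO vehicle 2. Klf2, a flow-induced endothelial factor and the 1 called gene of 28 immediate early genes, was at 10.8, 8.36 and 9.70 FPKM against 13.0, 19.7 and 17.9 FPKM (-0.80, SE 0.17, adjusted p = 0.0342). Its call was lost without DKO vehicle 1 and 2, with a log2 difference of -0.89. Of all genes, 1.09% were called lower. The 28 immediate early genes had a median of 0.13 (0.31 without DKO vehicle 1 and 2), and DESeq2 called 3 higher and 2 lower. At an unadjusted p below 0.05, 7 (25%) were higher and 5 (17.9%) lower, beside 8.93% and 10.6% of all genes tested. Of 48 lists, 29 had 0 members called by edgeR, among them oxidative phosphorylation (median -0.11), the mitochondrial genome (-0.08), ribosome biogenesis (-0.00), macrophages (0.07) and podocytes (0.01). In those 5 lists, of 27, 13, 26, 14 and 9 tested genes, DESeq2 called 0 as well, and 3, 0, 8, 1 and 1 genes had an unadjusted p below 0.05. For ribosome biogenesis these were 5 lower (19.2%) and 3 higher (11.5%), beside 10.6% and 8.93% of all genes tested.

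Contrasts between other groups, none of whose libraries belong to the 2 groups compared, were read for the 135 genes. Rapamycin in control mice gave a log2 difference below 0 for 60 of the 84 genes that were lower after rapamycin in Tsc2 KO (71.4%, median -0.15), beside 50.3% of all 7725 genes. For the 51 higher genes it was above 0 in 28 (54.9%), beside 49.7%. In the untreated KspCre cohort, DKO minus Tsc2 KO was below 0 for 63 of the 83 lower genes that could be tested (75.9%, median -0.31), beside 56.8% of 7711 genes, and below 0 for 23 of the 51 higher genes (45.1%). The genes left higher in DKO vehicle than after rapamycin thus mostly had lower values in untreated DKO than in untreated Tsc2 KO kidneys as well. Ddit4 was at 33.2 to 40.1 FPKM in untreated Tsc2 KO and 30.0 to 33.9 FPKM in untreated DKO kidneys (log2 difference -0.24, adjusted p = 0.74), and Insig1 at 48.7 to 65.1 and 24.4 to 44.3 FPKM (-0.63, adjusted p = 0.396). Untreated controls held 9.83 to 18.2 FPKM of Ddit4 and 11.4 to 23.4 FPKM of Insig1, so that both genes remained above control in untreated DKO kidneys, as they did in DKO vehicle.

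The values of the cohort's other contrasts stand beside these, although they share libraries with the direct comparison and with each other. For the 1929 genes increased by Tsc2 loss, the median log2 difference was -0.57 for rapamycin in Tsc2 KO mice and -0.41 for Tfeb deletion under vehicle. For the 1995 decreased genes these medians were 0.68 and 0.59. Against control vehicle, the increased genes stood at 0.19 after rapamycin and 0.35 in DKO vehicle, and the decreased genes at -0.13 and -0.28. Rapamycin given to DKO mice moved the increased genes by a median of -0.22 and the decreased genes by 0.15, and Tsc2 KO rapamycin kidneys stood above DKO rapamycin kidneys by 0.06 for the increased genes and by -0.01 for the decreased genes.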

How the data were processed

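Poly(A) RNA-seq of mouse kidney was analysed from gene count and FPKM tables. The counts are whole-number reads per gene as the authors deposited them, and the FPKM values were computed by the authors from such counts by gene length and mapped fragments. The submitters' processing notes name STAR 2.6.1d, HISAT2 2.0.5, featureCounts 1.5.0-p3, DESeq2 1.20.0 and mm10, with no role or order given. All value columns were mapped to samples by their labels. Of 54532 gene IDs, 53585 had the same coordinates in GENCODE M21.

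Counts were tested with edgeR 4.0.16 in R 4.3.3 (TMM normalization, low-count filter of filterByExpr, quasi-likelihood test, Benjamini-Hochberg adjustment), with all 6 groups of the drug cohort in 1 fit. Calls needed an adjusted p no higher than 0.05 together with 5 FPKM or more on average in 1 of the groups compared. Log2 differences are Tsc2 KO rapamycin over DKO vehicle. Library levels of gene sets used log2(FPKM + 0.5). The untreated KspCre cohort was fitted separately. Library depth, 15104557 to 22807605 counts, and 3 mice per group limit the precision. On simulated counts for the direct comparison, 68 of 100 genes changed by a log2 fold of 1 and 98 of 100 changed by 2 were recovered, with 6 false calls among 16744 genes. The changed genes were drawn from those with a mean above 100 counts. No RNA of other tissues was added to single libraries.

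Named genes were Tsc2, Tfeb, Gpnmb, Nyx, Matn1 and Meltf, then the 12 protein-coding genes with the largest and the 12 with the lowest log2 difference among called genes. These had groups that did not overlap, lay outside adrenal, adipose, muscle and erythroid lists, and kept their sign and at least the share 0.5 of their size without DKO vehicle 1 and 2. For each of 48 gene lists, up to 3 called members per direction, or the member with the lowest p, were added. Members and lists were chosen with earlier results of these data known. Alternatives were DESeq2 1.42.0, other normalization, filters, thresholds and samples. Promoters came from RefSeq (GRCm38.p6), with an entry for 12115 of 17021 tested symbols. Tables used Python 3.11.15 and pandas 2.3.3 and figures matplotlib 3.10.9. Samples of the other cohort, with another Cre, were not used here. Some members of the gene lists are counted but not reported here by name.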

Additional observations from a re-analysis of the deposited data

How the results depend on the processing

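None of the 48 called genes among the 81 named changed sign in an alternative run. For the 12 largest and 12 lowest of them, keeping the sign without DKO vehicle 1 and 2 was a condition for being named. Of the 33 that were not called, 7 did in at least 1, Matn1 among them, and the balance of calls among genes decreased by Tsc2 loss turned in 4 alternatives (without DKO vehicle 2, without DKO vehicle 1 and 2, with the adrenal covariate and with the 2 groups alone). The counts that follow are genes higher, then lower, after rapamycin, then the Tsc2-increased genes (higher, lower), the Tsc2-decreased genes (higher, lower) and the lysosomal genes (higher, lower), beside 51, 84, 7, 59, 29, 8, 0 and 2 as reported. DESeq2 gave 235, 337, 18, 181, 127, 29, 1 and 8. edgeR with the 2 groups alone gave 1, 14, 0, 7, 0, 1, 0 and 0. No filter on low counts gave 86, 217, 8, 116, 49, 17, 0 and 7. Without an FPKM minimum 75 were higher and 141 lower, and with 5 FPKM in every library the counts were 38, 48, 3, 35, 24, 4, 0 and 2. Without DKO vehicle 1 and 2 they were 0, 22, 0, 16, 0, 2, 0 and 0, and with the adrenal cortex sum as a covariate 4, 26, 3, 18, 1, 3, 0 and 0. RLE normalization gave 51 higher and 85 lower.

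Leaving out each of the 6 libraries in turn gave 10 to 44 higher and 29 to 88 lower genes, 4 to 7 and 24 to 62 Tsc2-increased genes, 3 to 24 and 1 to 7 Tsc2-decreased genes, and 0 to 0 and 1 to 4 lysosomal genes. Sets from the untreated cohort gave 3 and 52 increased and 20 and 2 decreased genes, and sets called in both cohorts, added after seeing the data, 2 and 49, and 20 and 2. With a replicate block 38 were higher and 75 lower, 7 and 60, 20 and 4, and 0 and 3 in the same order. Libraries of the same number had deviations correlated at 0.083, -0.063 and 0.076 over 12714 genes, so they share only a number. The cause of these shifts was not tested, and fewer samples or genes enter some of them. A covariate of Xist was not run, since both groups are of 1 sex. Without DKO vehicle 1 and 2, 40 of the 48 called genes among the 81 named lost their call, and the 33 others stayed uncalled. With 3 mice per group, 68 of 100 genes simulated with a log2 change of 1 were called, so smaller differences can be missed. The share for genes of lower counts, or with RNA of other tissues in single libraries, was not tested.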
